A study of Mus musculus with 24 samples.

Results

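Hair cells of the cochlea turn sound into electrical signals with the hair bundle, a staircase of actin-filled stereocilia on the cell's apical surface. Fine tip links join each stereocilium to its taller neighbour, and deflection of the bundle tightens the links and opens mechanotransduction channels near their lower ends. Genes that build the bundle, the links and the channel complex were in large part found through deaf mice and through inherited deafness in people, among them the Usher syndromes, in which hearing and sight are both affected.

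The signals of 10 such genes were followed in the cochleae of mice that lack the α9 subunit of the nicotinic acetylcholine receptor (Chrna9), the receptor through which efferent fibres inhibit hair cells. The genes were Myo7a, Myo6, Cdh23, Pcdh15, Ush1c, Espn, Tmc1, Lhfpl5, Tmie and Clrn1, and every probe set annotated with 1 of these symbols alone was taken, which gave 19 of the 45037 probe sets tested. The probe sets were taken by gene symbol alone. RNA of whole cochleae was measured on 24 Affymetrix arrays that cover the mouse genome. There were 3 arrays for α9-/- mice, which carry a constitutive deletion of Chrna9 in all cells, and 3 for wild type mice, at each of postnatal days 3, 7, 13 and 60 (P3, P7, P13 and P60). All mice had the hybrid 129S6 x CBA/CaJ background, backcrossed to CBA/CaJ, and each array carried a separate pool of cochleae from several mice. The comparisons ask whether loss of α9 and the passage through hearing onset, which lies near P13, go with other levels of the bundle genes. Hair cells are a small part of a whole cochlea, so fewer cells of a type and less RNA per cell cannot be told apart.

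Values are log2 signals, quantile normalized over all arrays to a median of 6.65, and a difference of 1 on this scale is a doubling of signal. Signals were compared within a probe set only, and no detection call was used, so a low signal may lie near background. A probe set was called when the adjusted p of limma, with the Benjamini-Hochberg adjustment over all 45037 probe sets, was under 0.05. The 3 probe sets of Chrna9 had group means of 3.66 to 5.96 and none was called between the genotypes at any age (adjusted p at least 0.0704), so the targeted gene gave no check of the labels. Whether these probe sets lie in the deleted part was not analysed here. In 5 arrays the 5′ Gapdh control was far below the 3′ control, by 6.30 to 7.69, against -0.15 to 2.43 in the other 19 arrays. These were replicate 2 of α9-/- at P3 and, in wild type, replicate 1 at P3, replicates 1 and 2 at P13 and replicate 1 at P60. At P13 the Gapdh difference did not overlap between the genotypes, at 0.34, -0.15 and -0.15 in α9-/- and 6.30, 6.47 and 2.43 in wild type. Added poly-A control transcripts had a mean signal of at least 8, counted here as signal, on 14 arrays and less on 10. The numbers were equal for both genotypes at each age. At P7, replicate 1 of wild type (7.13) and replicate 3 of α9-/- (7.14) lay between the other arrays without signal and those with it.

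None of the 10 genes was called between α9-/- and wild type cochleae at any age. The background was nearly as low at P3, P7 and P60, where 0%, 0.00444% and 0% of all probe sets were called, whereas at P13 5.57% were called. The lowest adjusted p among the 19 probe sets was 0.0900, for a Myo6 probe set at P13. At an unadjusted p under 0.05, limma gave 0 of 19 probe sets at P3, 2 at P7, 4 at P13 and 2 at P60, against 2.05%, 1.7%, 26.8% and 5.18% of all probe sets. The arrays of the 2 genotypes did not overlap for 0 of 19 probe sets at P3, 3 at P7, 4 at P13 and 6 at P60, against 6.18%, 4.81%, 32.5% and 10.9% of all probe sets. With 1 probe set per gene, the median difference of the 10 genes was -0.16 at P3, 0.09 at P7, 0.01 at P13 and -0.33 at P60. The medians of all genes, also with 1 probe set per gene, were 0.02, -0.0005, -0.19 and -0.11. The medians of all probe sets were 0.00, 0.00, -0.12 and -0.06. On the deposited scale the P13 median of the 10 genes had the opposite sign, at -0.06.

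**Figure D1:**
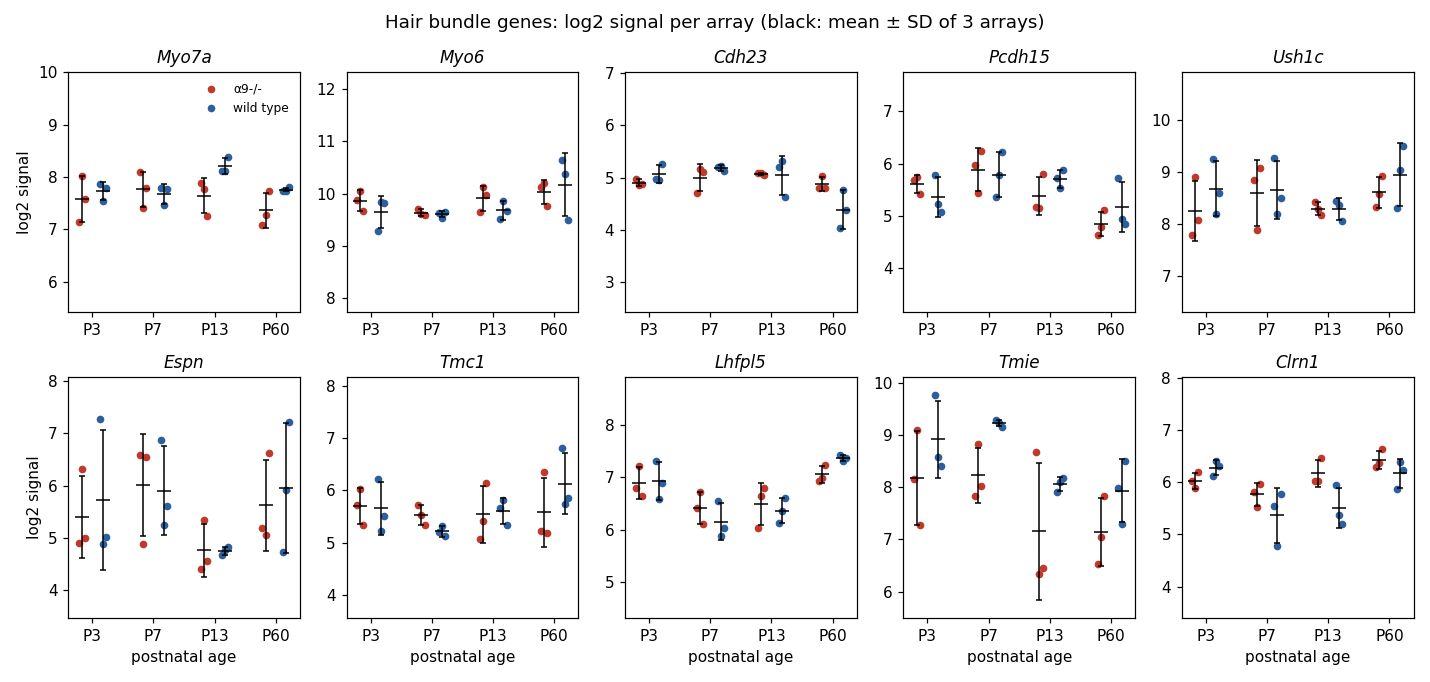
Log2 signal of each of the 10 genes at its probe set of highest mean signal (vertical axis) by postnatal age (horizontal axis), with α9-/- arrays in red left of wild type arrays in blue; points are single arrays and black marks give the mean ± SD of 3 arrays. All panels span the same range of log2 signal, and Espn and Tmie show the widest spread within groups, with SDs within groups of 0.91 and 0.72.

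The spread between arrays limits these comparisons more for some genes than for others. The SD within groups, at the probe set of highest mean signal, was 0.22 for Cdh23, 0.28 for Myo7a and Myo6, 0.29 for Lhfpl5 and Clrn1, 0.35 for Pcdh15, 0.44 for Tmc1, 0.48 for Ush1c, 0.72 for Tmie and 0.91 for Espn.

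**Figure D2:**
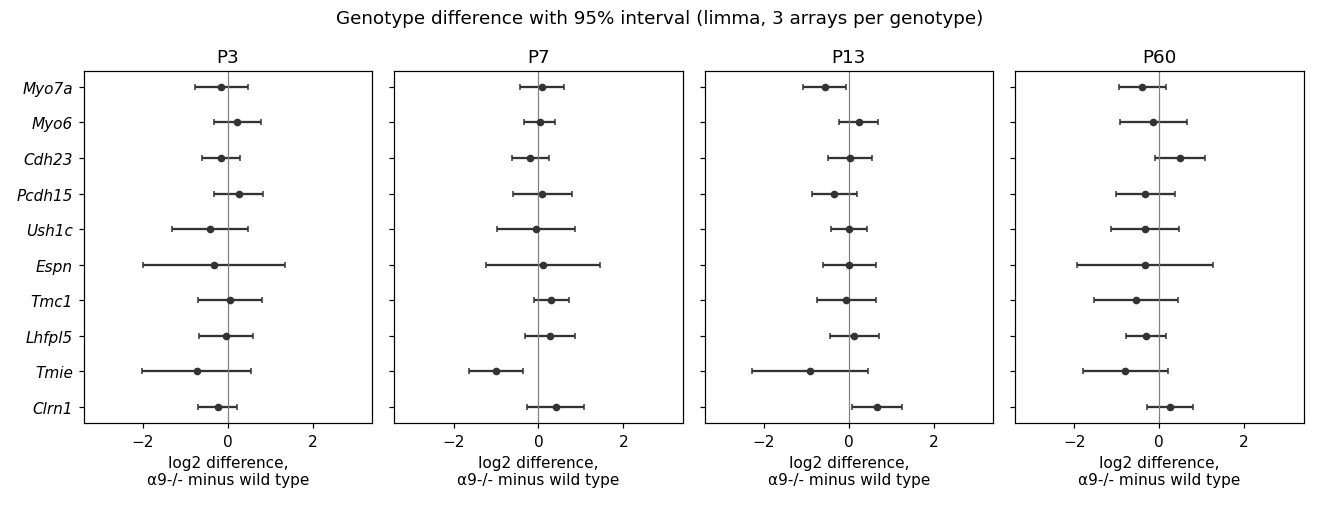
Difference in log2 signal, α9-/- minus wild type (horizontal axis), for each gene (vertical axis) at the 4 ages, with the 95% interval of the limma fit on 3 arrays per genotype. Before adjustment the interval excluded 0 for Tmie at P7 (-1.00) and for Myo7a (-0.57) and Clrn1 (0.66) at P13, and none of the differences was called.

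Myo7a (chr7:98051054-98119522 of GRCm38.p6) encodes the unconventional myosin that is mutated in shaker1 mice and acts at the upper end of the tip link. At P13 its probe set, 1421385_a_at, measured 7.89, 7.76 and 7.26 in α9-/- cochleae, against 8.12, 8.12 and 8.39 in wild type cochleae. All α9-/- arrays lay below all wild type arrays. The difference was -0.57 (SE 0.22, 95% interval -1.08 to -0.06) and was not called (adjusted p = 0.149). At P60 the arrays again did not overlap, at 7.09, 7.27 and 7.73 in α9-/- and 7.74, 7.74 and 7.80 in wild type, and the nearest arrays differed by less than the spread within α9-/-. The P60 difference was -0.40 (SE 0.23, adjusted p = 0.881). At P3 and P7 the genotypes overlapped, with differences of -0.15 and 0.09. The wild type mean was highest at P13, at 8.21 ± 0.16, against 7.68 ± 0.18 at P7 (SD, n = 3 each), and this step of 0.53 was not called (adjusted p = 0.129).

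Myo6 (chr9:80164976-80311729) encodes the myosin that walks towards the pointed ends of actin filaments and holds the base of the stereocilia, and its loss causes deafness in Snell's waltzer mice. It was measured by 3 probe sets that did not behave alike. At 1433942_at, the probe set of highest mean signal, the genotypes overlapped at every age, and group means ran only between 9.61 and 10.17. At 1435559_at they overlapped as well, with differences between -0.37 and 0.08. At 1421120_at the P13 arrays measured 6.86, 6.89 and 6.75 in α9-/- and 4.07, 4.35 and 6.39 in wild type. Every α9-/- array was higher, and the difference of 1.89 (SE 0.56) had an adjusted p of 0.0900. The same probe set measured 3.14 to 4.55 on the 5 arrays with low 5′ Gapdh signal, against 5.79 to 8.19 on the other 19 arrays, with no overlap. Without those 5 arrays the P13 difference was 0.44 (SE 0.22, adjusted p = 0.499), from 1 wild type array that was assumed to vary as the α9-/- arrays do. Replicate 3 of wild type at P13, not among those 5, had the highest Gapdh difference of the other 19 arrays, at 2.43. Without it the P13 difference was 2.62 and was called (adjusted p = 0.00132).

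**Figure D3:**
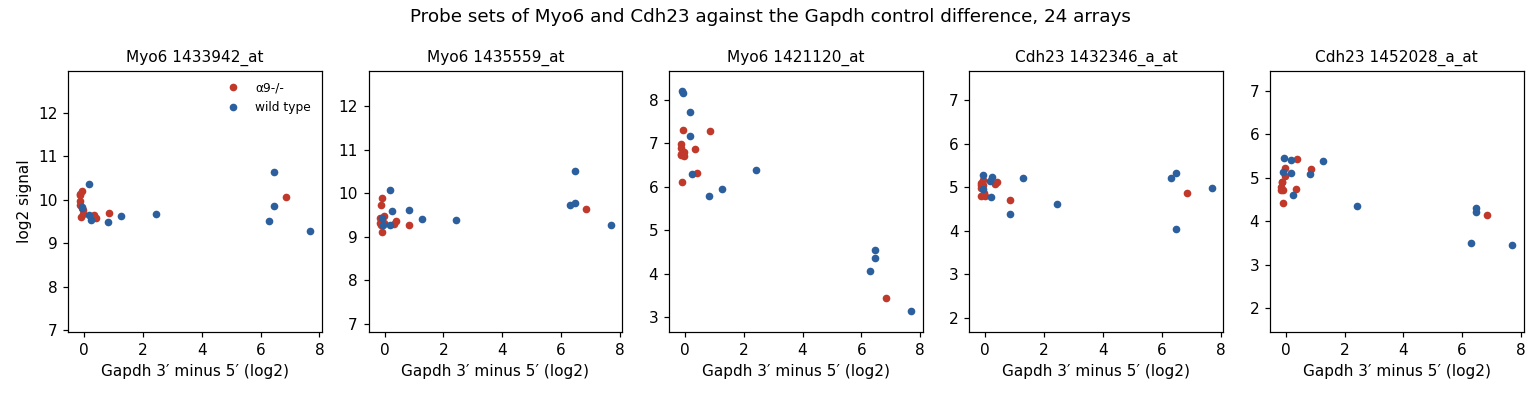
Log2 signal of the 3 Myo6 and 2 Cdh23 probe sets (vertical axes, each spanning the same range) against the difference between the 3′ and 5′ Gapdh control probe sets (horizontal axis, log2) on the 24 arrays, with α9-/- arrays in red and wild type arrays in blue. Myo6 1421120_at and Cdh23 1452028_a_at are at their lowest on the 5 arrays with Gapdh differences of 6.30 to 7.69, while the other 3 probe sets overlap between those arrays and the rest.

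Cdh23 and Pcdh15 are the cadherins of the tip link, Cdh23 forming its upper part and Pcdh15 its lower part next to the channel. Cdh23 (chr10:60302748-60696513) gave 2 probe sets. At 1432346_a_at the largest genotype difference was at P60, where the arrays measured 4.80, 5.04 and 4.80 in α9-/- and 4.03, 4.76 and 4.37 in wild type. The α9-/- arrays lay just above the wild type arrays, and the difference of 0.49 (SE 0.25, 95% interval -0.09 to 1.08) was not called (adjusted p = 0.881). At 1452028_a_at the P13 arrays measured 4.74, 4.72 and 4.79 in α9-/- and 3.50, 4.31 and 4.35 in wild type, a difference of 0.70 (SE 0.25, adjusted p = 0.137). This probe set too was lowest on the 5 arrays with low 5′ Gapdh signal, at 3.46 to 4.31 against 4.35 to 5.46 on the other 19. Without those arrays the P13 difference was 0.40 (adjusted p = 0.535), again from 1 wild type array.

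Pcdh15 (chr10:73096277-74649831) was measured by 3 probe sets. At 1421503_at the genotypes overlapped at every age, and the difference lay between -0.34 at P13 and 0.25 at P3. At 1444317_at signals were scattered within groups, for example 5.10, 5.74 and 3.64 in α9-/- and 6.23, 5.20 and 3.36 in wild type at P60. In both genotypes replicate 3 was low there. At 1442326_at the P60 arrays did not overlap, at 3.70, 3.63 and 3.61 in α9-/- and 3.89, 3.94 and 3.92 in wild type, a difference of -0.27 (SE 0.18, adjusted p = 0.881).

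Ush1c (chr7:46195350-46238490) encodes harmonin, the scaffold that ties Cdh23 to the actin core, and Espn (chr4:152120331-152152414) encodes espin, which cross-links actin filaments and is mutated in jerker mice. Neither showed a genotype difference larger than the spread within groups. At 1450001_a_at Ush1c averaged 8.29 ± 0.12 in α9-/- and 8.29 ± 0.21 in wild type at P13 (SD, n = 3 each), a difference of 0.00 (95% interval -0.42 to 0.43). Espn at 1423005_a_at had the widest intervals of the 10 genes, for example -1.99 to 1.35 at P3 and -1.94 to 1.26 at P60. Single arrays stood out within both genotypes. At P60 Espn measured 5.19, 5.05 and 6.63 in α9-/- and 4.74, 5.92 and 7.22 in wild type, and replicate 3 was highest in each. Ush1c was highest on the same arrays, at 8.33, 8.58 and 8.92 in α9-/- and 8.30, 9.03 and 9.50 in wild type. The mean of 5 skeletal muscle markers was also highest on these arrays. It was 10.16, 10.37 and 12.29 in α9-/- and 8.78, 10.32 and 12.54 in wild type. The mean of erythroid markers was highest there too, at 9.48 in α9-/- and 9.44 in wild type. Espn and the muscle mean peaked on the same array also in wild type at P3 and P13 and in α9-/- at P13. They did not at P7 in either genotype. Nor did they in α9-/- at P3, where Espn was highest on replicate 2, at 6.31, with a muscle mean of 7.77. That array and replicate 1 of wild type, where Espn was highest at 7.28, were the P3 arrays with low 5′ Gapdh signal. Espn and the erythroid mean peaked on the same array in wild type at P3 and P7, but in no other group before P60. The part of these markers and of the Gapdh difference in the Espn and Ush1c values was not tested.

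Tmc1, Lhfpl5 and Tmie belong to the transduction channel complex: Tmc1 forms the channel pore, Lhfpl5 binds Pcdh15, and Tmie, mutated in spinner mice, is needed for the channel to work. Of the 10 genes, each at its probe set of highest mean signal, Tmie (chr9:110865687-110880073) had the largest genotype difference at P3, P7, P13 and P60, and its α9-/- mean was below the wild type mean at each. None of these differences was called. At 1443964_at, P3 arrays measured 8.16, 9.09 and 7.28 in α9-/- and 9.76, 8.57 and 8.40 in wild type. At P7 they measured 7.82, 8.82 and 8.03 in α9-/- and 9.28, 9.23 and 9.16 in wild type. The genotypes overlapped at P3 and did not at P7. At P13 the arrays measured 8.67, 6.34 and 6.45 in α9-/- and 7.91, 8.10 and 8.17 in wild type. At P60 they measured 6.54, 7.04 and 7.83 in α9-/- and 7.99, 7.30 and 8.51 in wild type. At P13 replicate 1 of α9-/- was the highest of the 6 arrays while its other replicates were the lowest, and at P60 the genotypes overlapped.

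The Tmie differences at this probe set were -0.74 (SE 0.54) at P3, -1.00 (SE 0.27) at P7, -0.91 (SE 0.58) at P13 and -0.80 (SE 0.42) at P60, with adjusted p values of 1 at P3 and P7, 0.352 at P13 and 0.881 at P60. Without replicate 1 of α9-/- the P13 difference was -1.66 (SE 0.19) and was called (adjusted p = 0.0167). That array and replicate 1 of wild type, at 8.67 and 7.91, were the P13 arrays with poly-A control signal. Since each genotype had 1 such array, the poly-A signal as a block could not move the difference of -0.91. Only its error could change (SE 0.48, adjusted p = 0.238). Averaged over the 4 ages, a comparison chosen after these values were seen, the difference was -0.86 (SE 0.27, 95% interval -1.43 to -0.29). It was not called (adjusted p = 0.331), in a comparison in which 0.0844% of all probe sets were.

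Of the other Tmie probe sets, 1441926_x_at, whose suffix marks probes that may also match other transcripts, had an α9-/- mean below the wild type mean at each age. Its P7 arrays measured 7.46, 8.31 and 7.66 in α9-/- and 9.19, 8.49 and 8.47 in wild type. At P60 it measured 7.63, 7.80 and 7.54 in α9-/- and 8.58, 8.12 and 8.59 in wild type, again without overlap. These differences were -0.90 (SE 0.30, adjusted p = 1) at P7 and -0.77 (SE 0.22, adjusted p = 0.881) at P60, and the genotypes overlapped at P3 (-0.50) and P13 (-0.20). Averaged over the ages the difference was -0.59 (SE 0.21, adjusted p = 0.376) at 1441926_x_at and -0.26 (SE 0.19, adjusted p = 0.573) at 1439838_a_at, where it was 0.18 at P3 and 0.02 at P60. In the averaged comparison 0 of 19 probe sets were called and 5 had an unadjusted p under 0.05, against 11.5% of all probe sets. Besides these Tmie probe sets, 1443964_at and 1441926_x_at, they were those of Myo7a (-0.26) and Clrn1 (0.27) and 1421626_at of Tmc1 (0.39).

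Tmc1 (chr19:20783456-21037126) was measured by 3 probe sets, of which 1421626_at and 1421625_a_at come from the same transcript record. At 1430818_at the P7 arrays measured 5.71, 5.52 and 5.33 in α9-/- and 5.21, 5.31 and 5.12 in wild type, a difference of 0.31 (SE 0.17, adjusted p = 1) without overlap. At P60 the probe sets pointed in different directions. The difference was -0.54 (SE 0.42) at 1430818_at, where the genotypes overlapped, and 0.82 (SE 0.31, adjusted p = 0.881) at 1421626_at, with 5.42, 5.69 and 5.42 in α9-/- and 4.46, 5.32 and 4.29 in wild type. Within their groups, 1421626_at and 1421625_a_at were below the mean of the other arrays on all 5 arrays with low 5′ Gapdh signal, and 1430818_at was above it on all 5. Of the 19 probe sets, 4 were below in all 5, 2 were above and 13 were neither.

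Lhfpl5 (chr17:28575369-28583593) at 1429266_at measured 6.93, 6.99 and 7.24 in α9-/- and 7.43, 7.31 and 7.37 in wild type at P60. The α9-/- arrays lay just below the wild type arrays, and the difference was -0.32 (SE 0.20, 95% interval -0.78 to 0.15, adjusted p = 0.881). At the other ages the genotypes overlapped, with differences between -0.05 and 0.27.

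Clrn1 (chr3:58844028-58885212) encodes clarin-1, a membrane protein of the bundle and the hair cell synapse that is mutated in Usher syndrome type 3. At 1438347_at the P13 arrays measured 6.02, 6.03 and 6.46 in α9-/- and 5.94, 5.37 and 5.20 in wild type. All α9-/- arrays were above all wild type arrays, the nearest by less than the spread within either genotype. The difference was 0.66 (SE 0.25, 95% interval 0.08 to 1.25) and was not called (adjusted p = 0.145). Without the arrays of low 5′ Gapdh signal it was 0.97 (adjusted p = 0.264), with 1 wild type array left. The difference was -0.25 at P3, 0.40 at P7 and 0.26 at P60.

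Across ages, wild type cochleae gave 4 calls among the bundle genes and α9-/- cochleae none. In wild type, Lhfpl5 rose and Cdh23 fell at P60 against P13, and a Myo6 probe set rose and Cdh23 fell at P60 against P3. Among all probe sets, 5.07% were called higher and 6.99% lower in wild type at P60 against P13, and 7.6% higher and 6.12% lower at P60 against P3. Of the bundle genes' probe sets 1 of 19 was called in each direction in each comparison, which is near these shares. At P7 against P3 and P13 against P7, 0 of 19 were called in wild type, where 0.997% and 14.3% of all probe sets were. In α9-/-, 0 of 19 were called at P7 against P3, P13 against P7, P60 against P13 and P60 against P3, where 1.23%, 2.95%, 7.28% and 14.3% of all probe sets were. At an unadjusted p under 0.05, limma gave 2, 0, 1 and 3 of 19 in these α9-/- comparisons, against 11.8%, 14%, 18.3% and 26.7% of all probe sets. It gave 4 and 4 of 19 in the wild type comparisons without a call, against 11.1% and 29.3%.

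In wild type Lhfpl5 measured 7.43, 7.31 and 7.37 at P60, against 6.12, 6.36 and 6.59 at P13. Every P60 array was above every P13 array, and the difference was 1.01 (SE 0.24, adjusted p = 0.0100). In α9-/- Lhfpl5 measured 6.93, 6.99 and 7.24 at P60 and 6.04, 6.64 and 6.79 at P13, also without overlap, with a difference of 0.56 (SE 0.24, adjusted p = 0.209). The 2 steps were not shown to differ, since their own difference, α9-/- minus wild type, was -0.45 (95% interval -1.17 to 0.27). At P3 Lhfpl5 measured 6.80, 7.22 and 6.63 in α9-/- and 7.31, 6.59 and 6.90 in wild type, and in wild type it was lower at P7, at 6.55, 5.87 and 6.02, than at P3 (difference -0.79, adjusted p = 0.155). The rise at P60 was no longer called without replicate 1 of wild type at P13 (0.89, adjusted p = 0.0562), without the 5 arrays of low 5′ Gapdh signal (0.74, adjusted p = 0.214, with 1 wild type array left at P13 that was assumed to vary as the other groups do) or with only the arrays of the 2 groups in the fit (adjusted p = 0.0718).

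Cdh23 in wild type, at 1432346_a_at, measured 4.98, 4.95 and 5.27 at P3, 5.21, 5.32 and 4.62 at P13 and 4.03, 4.76 and 4.37 at P60. The P60 arrays lay below all P3 arrays and overlapped those of P13. P60 minus P13 was -0.66 (SE 0.20, adjusted p = 0.0343) and P60 minus P3 was -0.68 (SE 0.20, adjusted p = 0.0252). Both calls were lost when certain single wild type arrays were left out. P60 minus P13 was then -0.58 without P13 replicate 1 (adjusted p = 0.134), -0.52 without P13 replicate 2 (0.149), -0.48 without P60 replicate 1 (0.0986) and -0.65 without P60 replicate 3 (0.0929). P60 minus P3 was -0.58 without P3 replicate 3 (adjusted p = 0.119), -0.50 without P60 replicate 1 (0.121) and -0.67 without P60 replicate 3 (0.0603). Without the arrays of low 5′ Gapdh signal P60 minus P13 was -0.05 (adjusted p = 0.927), against the 1 wild type array left at P13, replicate 3, which was the lowest of that group at 4.62. P60 minus P3 was -0.54 (adjusted p = 0.0767). In α9-/- Cdh23 averaged 4.91 ± 0.07 at P3, 5.08 ± 0.02 at P13 and 4.88 ± 0.14 at P60 (SD, n = 3 each). The genotype difference in the step from P13 to P60 was 0.47 (95% interval -0.12 to 1.05).

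Myo6 at 1435559_at measured 10.51, 10.07 and 9.62 in wild type at P60, against 9.28, 9.43 and 9.26 at P3, a difference of 0.74 (SE 0.20, adjusted p = 0.0137) without overlap. At 1433942_at, which averaged 10.17 ± 0.60 at P60 and 9.65 ± 0.31 at P3 (SD, n = 3 each), the difference was 0.52 (adjusted p = 0.170). The call at 1435559_at was lost without P60 replicate 1 (0.52, adjusted p = 0.0790), without P3 replicate 3 (0.71, adjusted p = 0.0525) or without the arrays of low 5′ Gapdh signal (0.50, adjusted p = 0.103). Without P60 replicate 3, 1433942_at was called as well (0.86, adjusted p = 0.00917). In α9-/- the difference between P60 and P3 at 1435559_at was 0.29 (adjusted p = 0.374).

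In α9-/- the smallest adjusted p between P60 and P3 was 0.0540, for 1421625_a_at of Tmc1, which averaged 4.21 ± 0.10 at P60 and 3.48 ± 0.38 at P3. The α9-/- arrays of P60 were all above those of P3. Pcdh15 at 1421503_at averaged 4.85 ± 0.24 at P60 and 5.61 ± 0.17 at P3 in α9-/- (difference -0.77, adjusted p = 0.0744), again without overlap. The corresponding wild type difference of Pcdh15 was -0.19 (adjusted p = 0.743). Tmie in wild type averaged 8.06 ± 0.13 at P13 and 9.22 ± 0.06 at P7 (SD, n = 3 each), a difference of -1.16 (SE 0.55, adjusted p = 0.162). In α9-/- its difference between these ages was -1.07 (adjusted p = 0.400), which became -1.83 and was called without replicate 1 at P13 (adjusted p = 0.0440). Tests of whether the genotype difference itself changed from P3 to P7, P7 to P13 or P13 to P60 called 0 of 19 probe sets, and 0 of 19 had an unadjusted p under 0.05. Of all probe sets they called 0%, 0.00222% and 0%, and 1.37%, 8.89% and 4% had an unadjusted p under 0.05. The lowest adjusted p was 0.565, for Myo7a from P7 to P13 (-0.66, 95% interval -1.34 to 0.03).

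**Figure D4:**
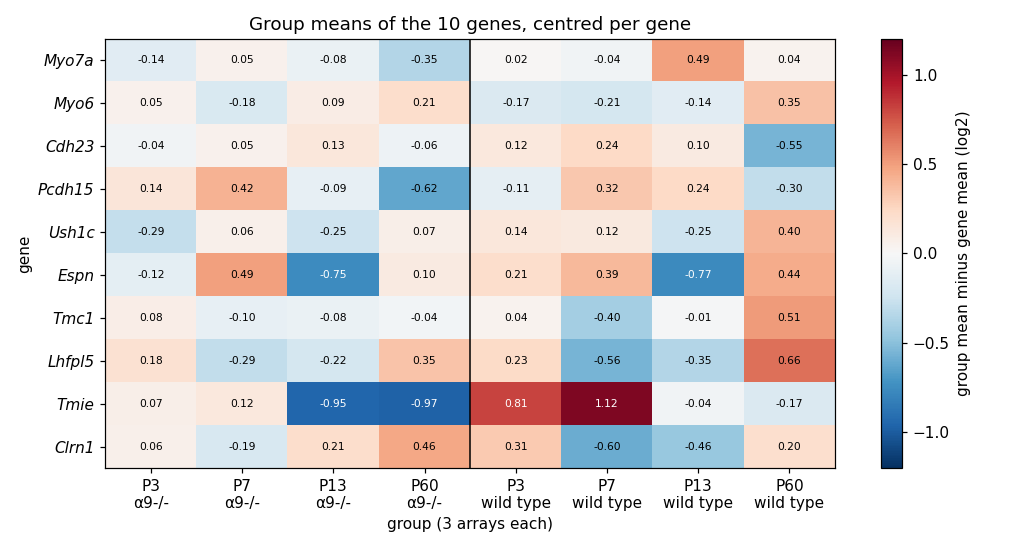
Group means of the 10 genes (rows) in α9-/- and wild type groups of 3 arrays (columns, by age within genotype), each as the difference from that gene's mean over the 8 groups in log2 units; red is above and blue below that mean. Tmie runs lower in α9-/- than in wild type at each age, Espn is lowest at P13 in both genotypes, and Lhfpl5 and Clrn1 share low P7 values in wild type.

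The genes did not share a common course. Over the 8 group means, centred per gene, the mean profile of the 10 genes ran only between -0.20 (α9-/- at P13) and 0.16 (wild type at P3 and P60). The most alike pairs, by the mean absolute difference of their centred group means, were Myo6 and Tmc1 (0.15) and Lhfpl5 and Clrn1 (0.18). The least alike were Lhfpl5 and Tmie (0.75). The 10 of 18183 other genes whose group means were most like the mean profile were S100a7l2, Tcf4, Ccdc169, Cyp3a25, Bap1, Gipr, Slc27a1, Brwd1, Hexim2 and Fam71e1, at mean absolute differences of 0.035 to 0.045 over 8 groups. Since the mean profile is nearly flat, so are these.

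The starts of Lhfpl5 and Clrn1, whose profiles were alike, and of Tmie, whose profile was least like that of Lhfpl5, are shown for their E-boxes. The windows run 250 bases before to 50 bases after a RefSeq start, 5′ to 3′ on the gene's strand, in GRCm38.p6. Such a start need not be the outer end of the gene. The window of Lhfpl5 lies inside the gene span given above, as do some of the windows counted below, among them those of Pcdh15 and Tmc1. Capitals mark the letters CAGCTG, which read the same on both strands, or CAGATG on either strand, which reads CATCTG on the other. These are E-boxes of the kind that bHLH factors such as Atoh1, the hair cell determinant, can bind. They lie at chr17:28575469-28575768 (plus strand) for Lhfpl5, chr3:58885163-58885462 (minus strand) for Clrn1 and chr9:110880024-110880323 (minus strand) for Tmie.
Lhfpl5: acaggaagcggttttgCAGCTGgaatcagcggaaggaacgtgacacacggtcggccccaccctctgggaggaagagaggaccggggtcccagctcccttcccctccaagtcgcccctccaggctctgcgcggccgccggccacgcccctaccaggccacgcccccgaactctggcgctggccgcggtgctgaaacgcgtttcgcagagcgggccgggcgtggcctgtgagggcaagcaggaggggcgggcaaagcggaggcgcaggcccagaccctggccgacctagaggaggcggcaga
Clrn1: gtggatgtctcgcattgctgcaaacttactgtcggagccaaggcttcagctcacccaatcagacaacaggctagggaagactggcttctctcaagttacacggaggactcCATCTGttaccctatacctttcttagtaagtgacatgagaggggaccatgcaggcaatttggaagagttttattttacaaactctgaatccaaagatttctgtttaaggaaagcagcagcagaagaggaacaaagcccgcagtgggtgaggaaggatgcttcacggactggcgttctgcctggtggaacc
Tmie: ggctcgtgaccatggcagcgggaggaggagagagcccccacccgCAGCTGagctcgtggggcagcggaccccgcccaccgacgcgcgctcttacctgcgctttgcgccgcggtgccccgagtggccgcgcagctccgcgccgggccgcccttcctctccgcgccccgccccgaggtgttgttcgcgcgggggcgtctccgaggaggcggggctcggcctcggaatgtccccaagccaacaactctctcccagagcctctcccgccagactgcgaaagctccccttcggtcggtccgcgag
Lhfpl5 and Tmie thus each hold CAGCTG in GC-rich windows (70.7% and 73.7% G and C), and Clrn1 holds CAGATG in a window of 48.7%. All 10 genes matched, with 13 windows in all. CAGCTG was in 7 of the 13 windows, of 5 of the 10 genes, and in 16.3% of 32851 promoter windows of the same length. CAGATG was in 1 of 13, and in 17.2% of all.

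Of 35 other hair bundle genes listed with earlier results known, 23 were measured, and 1 was called between the genotypes, at P13, where 5.57% of all probe sets were called. Ripor2, which is needed for bundle orientation and cohesion, was lower in α9-/- than in wild type at P13. It averaged 9.18 in α9-/- and 10.01 in wild type (difference -0.82, SE 0.16, adjusted p = 0.0370). From P7 to P13 it went from 8.75 to 9.18 in α9-/-, which was not called, and from 8.82 to 10.01 in wild type. At P13 the Gapdh difference also did not overlap between the genotypes, and its part in this call was not tested. The median difference of the 23 genes was -0.03 at P3, 0.00 at P7, -0.09 at P13 and -0.15 at P60. Between P60 and P3, 3 of 23 rose and 2 fell in each genotype, where 14.3% of all probe sets were called in α9-/- and 7.6% were called higher and 6.12% lower in wild type. Fscn1, an actin-bundling protein, fell in both, with log2 differences of -2.71 in α9-/- and -2.60 in wild type. Gpsm2, which with G proteins sets stereocilium height, fell as well, with differences of -1.33 in α9-/- and -1.16 in wild type. Atp2b2, the calcium pump of the stereocilia, rose by 1.83 in α9-/- and by 1.53 in wild type. Of 6 cerebellar markers, 6 were called higher between these ages in α9-/- and 3 in wild type. Their median differences were 3.76 and 2.82, and their part in the Atp2b2 values was not tested. Eps8l2, a stereocilium tip protein, rose by 1.08 in α9-/- and by 1.17 in wild type. Clic5, which acts at the stereocilium base, rose by 0.81 in α9-/- and by 1.17 in wild type.

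Between P60 and P13, 1 of these 23 genes rose and 2 fell in α9-/-, where 7.28% of all probe sets were called. In wild type 2 rose and 1 fell, where 5.07% were called higher and 6.99% lower. Gpsm2 fell, with differences of -1.43 in α9-/- and -1.65 in wild type, and Atp2b2 rose by 1.51 in α9-/- and by 1.08 in wild type. Of the 6 cerebellar markers, 6 were called higher in this step in α9-/- and 1 in wild type. Their part in the Atp2b2 values was again not tested. Fscn1 fell in α9-/- (-0.97) and was not called in wild type (0.04), and Eps8l2 rose in wild type (0.95) and was not called in α9-/- (0.70). The differences between genotypes in these steps were not called. Between P13 and P7, 1 of 23 was called in α9-/- and 3 in wild type, where 2.95% and 14.3% of all probe sets were. Fscn1 fell, with differences of -1.35 in α9-/- and -2.04 in wild type, and in wild type Eps8, which lengthens stereocilia, rose by 1.45 and Ripor2 by 1.19. Between P7 and P3 none of the 23 was called in either genotype.

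Of 12 hair cell markers 9 were measured, and their mean per array ran from 6.65 to 6.97 in α9-/- and 6.98 to 7.18 in wild type at P3, and from 7.07 to 7.17 in α9-/- and 7.06 to 7.31 in wild type at P60. At P7 it ran from 6.57 to 6.88 in α9-/- and 6.71 to 6.88 in wild type, and at P13 from 6.89 to 7.01 in α9-/- and 6.73 to 7.03 in wild type. Of these 9, 2 were called between the genotypes at P13, where 5.57% of all probe sets were. The transcription factor Pou4f3 (5.43 in α9-/- and 3.90 in wild type, adjusted p = 0.0129) was higher in α9-/-. So was the calcium-binding protein Calb2 (12.13 in α9-/- and 10.40 in wild type, adjusted p = 0.0360), and the other 7 were not called. Both Pou4f3 means lay below the median signal of 6.65, and a low signal may lie near background. The Gapdh difference did not overlap between the genotypes at P13 either, and its part in these values was not tested. Only 3 of the 9 differences were positive, and their median was -0.22 (-0.34 on the deposited scale). Markers of other tissues moved with groups as well. At P13 the mean of 5 neutrophil markers ran from 12.78 to 12.92 in α9-/- and from 13.28 to 13.66 in wild type. The mean of 6 cerebellar markers ran from 6.22 to 7.58 in α9-/- and 6.29 to 9.30 in wild type at P13, and from 9.96 to 12.07 in α9-/- and 7.90 to 11.12 in wild type at P60, although cerebellar fragments were removed at dissection. The part of these markers in the values of the bundle genes was not tested.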

How the data were processed

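RNA of pooled cochleae from 12 α9-/- and 12 wild type pools was measured on Affymetrix mouse genome arrays. According to the study's methods, the authors used AffyPLM to correct background as in RMA, to normalize by quantiles and to summarize each probe set by Tukey's biweight. The log2 signals they deposited lay between 2.35 and 15.00. Array medians lay between 6.49 and 6.89. These signals were quantile normalized again over all 24 arrays and 64 control probe sets were then left out. The number of arrays limits the precision.

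Each age was fitted separately for genotype, and all arrays together for age and for genotype by age, with limma 3.58.1 in R 4.3.3 (two-sided). All probe sets were tested with no filter on low values. The methods' variance filter and log2 limit of 1.5 were alternatives, as were other scalings, blocks and leaving out arrays. The scripts were tested on simulated data.

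The 10 genes were given. The members and lists were chosen with earlier results of these data known. Named from the list of other bundle genes were called members, up to 4 per direction. The 10 genes most like the mean profile were taken from 18183 other genes, not from that list. Where 1 value per gene was used, the probe set with the highest mean over all arrays gave it. Gene symbols came from the platform annotation and RefSeq (GRCm38.p6), and promoter sequences from RefSeq (GRCm38.p6). Figures were drawn with matplotlib 3.10.9.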

Additional observations from a re-analysis of the deposited data

How the results depend on the processing

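Of 4998 values of single probe sets under the alternatives, 4953 stayed on their side of the threshold, 22 lost a call, 23 gained 1 and 0 changed direction while called. Among the 4953, 352 values without a call changed sign. The number of the 19 probe sets called between the genotypes stayed at 0 at P3, P7 and P60, for the change of the genotype difference between ages and for its average over ages, under every alternative run. At P13 it ran from 0 to 1 when single arrays were left out.

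For P60 against P13 in wild type, 2 were called. The count was 4 on the deposited scale and with the poly-A signal as a block, 1 among the probe sets above the median level, and 0 under the variance filter, the log2 limit of 1.5, the fit of only the arrays compared, and without the arrays of low 5′ Gapdh signal, and 1 to 3 when single arrays were left out. For P60 against P3 in wild type, 2 were called, against 1 among the probe sets above the median level or with 1 probe set per gene, 0 under the variance filter, the log2 limit, the fit of only the arrays compared and without the arrays of low 5′ Gapdh signal, and 0 to 2 without single arrays. The variance filter left 8 of the 19 probe sets, none of them called for these ages by the fit of all probe sets, and the median level left 7. For P60 against P3 in α9-/-, 0 were called, against 1 on the deposited scale, with median centring and in the fit of only the arrays compared, 2 with the poly-A block, and 0 to 1 without single arrays. For P7 against P3 in wild type, 0 were called, against 1 with 1 probe set per gene and 1 with the poly-A block. For P13 against P7 in wild type it was 0, against 1 on the deposited scale and 1 in the fit of only the arrays compared. For P13 against P7 in α9-/- it was 0, and 0 to 1 without single arrays. Fewer probe sets or arrays entered several of these fits, and otherwise the cause was not tested.

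Arrays with the same replicate number were not labelled as pairs. The correlations of their deviations ran from -0.70 to 0.60, and not every array correlated best with its own number. Some shared more than the number. Replicate 2 at P7 (correlation 0.60) and replicate 1 at P13 (0.32) were the arrays with poly-A signal in both genotypes. Each group held each replicate number once, so the replicate number as a block (replicate block) could change the errors but not the differences. With it all 304 values kept their call, for example Tmie at P13 (-0.91, adjusted p = 0.303) and Lhfpl5 in wild type at P60 against P13 (1.01, adjusted p = 0.0140). The poly-A block could not be fitted for the genotypes at P60, where all arrays had poly-A signal.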
